A study of Drosophila melanogaster with 12 samples.

Results

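The genes cryptochrome (cry) and jetlag (jet), which carry light into the circadian clock of Drosophila melanogaster, were followed in adult heads over a day of constant darkness (DD) and a preceding day of light and dark (LD). The members were all probe sets whose platform gene symbol is cry or jet. This gave 1 probe set for cry (152673_at) and 1 for jet (153598_at), 2 of 14010 probe sets on the array and 2 of 10843 genes represented there. The flies carried the yellow and white mutations (y w), which alter body and eye pigment, and all 12 arrays share this genotype. They were entrained for 3 days with 12 h light and 12 h dark. DD flies were taken at circadian time (CT) 4, 8, 12, 16, 20 and 24 on the day without light, and LD flies at Zeitgeber time (ZT) 4, 8, 12, 16, 20 and 24 on the day before it, both counted from subjective or actual lights-on. Each time point is 1 array of RNA pooled from about 100 to 200 heads, so no time point was repeated. The labels give neither age nor sex of the flies. Values are RMA expression on a log2 scale, where a difference of 1 is a doubling.

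CRY is a flavin-binding photoreceptor that absorbs blue light inside clock neurons and in the eye. Light-activated CRY binds TIMELESS (TIM), the partner of PERIOD (PER). JET is an F-box protein with leucine-rich repeats. It is the substrate-recognition part of an SCF ubiquitin ligase, built on a cullin, SKPA and a RING protein, and it marks TIM and then CRY for the proteasome. Loss of TIM at an unexpected hour shifts the clock. In other work cry mRNA was high by day and low by night, opposite in phase to tim and per mRNA, as is the mRNA of the activator Clk. In whole heads the eyes and fat body outnumber the clock neurons, and a bulk value cannot tell fewer cells of a type from less RNA per cell.

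In the RefSeq annotation cry lies on chromosome arm 3R and has 1 transcript, and jet lies on 2L and has 2. The cry gene shares 9 bases with its neighbour vib, which encodes a phosphatidylinositol transfer protein, and the jet gene shares 119 bases with betaggt-I, which encodes a prenyltransferase subunit. The probes' positions within the genes were not analysed here. The vib level was lowest at ZT4 (5.29) and CT12 (5.30) and highest at CT24 (5.95), and the betaggt-I level was lowest at CT12 (4.64) and highest at ZT12 (5.86). The digestive protease gene Jon25Biii, 156 bases from jet, ranged over 4.07 (log2) between its lowest array, ZT20, and its highest, ZT12, while jet ranged over 0.508.

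The arrays ZT4, CT4 and CT12 stood apart in RNA quality. The signal of 3' minus 5' control probe sets for actin, GAPDH and eIF-4a was 2.64 to 3.46 (log2) on these 3 arrays and 1.69 to 2.20 on the other 9. Hybridisation control transcripts averaged 10.54 at CT12 and 10.55 at ZT4, and 8.91 to 9.69 on the other arrays, CT4 included. Of probe sets with a mean above the median, 22.6% had their lowest value at CT12, 16.1% at ZT4 and 12.9% at CT4. Among head markers, the photoreceptor gene Arr2 (an arrestin) lay between 11.75 and 12.41 and trp (a channel of the photoreceptor light response) between 9.09 and 10.15. Arr1 was at 9.44 at CT12 and at 10.19 or above elsewhere. Marker lists of other tissues moved as well. Scores were the mean deviation of a list's measured genes from their means over the arrays. For 21 male reproductive tract markers the score was 1.51 at CT12 and -0.592 to 0.729 on the other 11 arrays. Of the 21, 19 were highest at CT12, where 13.9% of probe sets above the median level were highest. For 15 thoracic muscle markers the score was 1.04 at CT12 and at most 0.502 elsewhere. For 26 midgut markers it was 1.13 at CT12 and 1.16 at ZT12. The main results on cry and jet are given with and without ZT4, CT4 and CT12.

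The level of cry moved over a 2.46-fold range. In DD, cry was 8.03 at CT4, 8.17 at CT8, 7.17 at CT12, 7.96 at CT16, 7.81 at CT20 and 8.17 at CT24. In LD, cry was 7.54 at ZT4, 8.46 at ZT8, 8.21 at ZT12, 7.85 at ZT16, 7.41 at ZT20 and 8.08 at ZT24. The LD day held 1 rise to ZT8 and then a stepwise decline to ZT20, and ZT24 was higher again. The DD day was flat between 7.81 and 8.17 but for CT12, the array with the largest 3' minus 5' difference, which lay below all the others. The lowest 3 arrays overall were CT12, ZT20 and ZT4, so 2 of the 3 weak arrays were among them, while CT4 lay in the middle of the order. Between neighbours in the order of the 12 levels no gap exceeded the residual SD of the rhythm fit as moderated by limma (0.358). This order does not test for a rhythm.

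**Figure D1:**
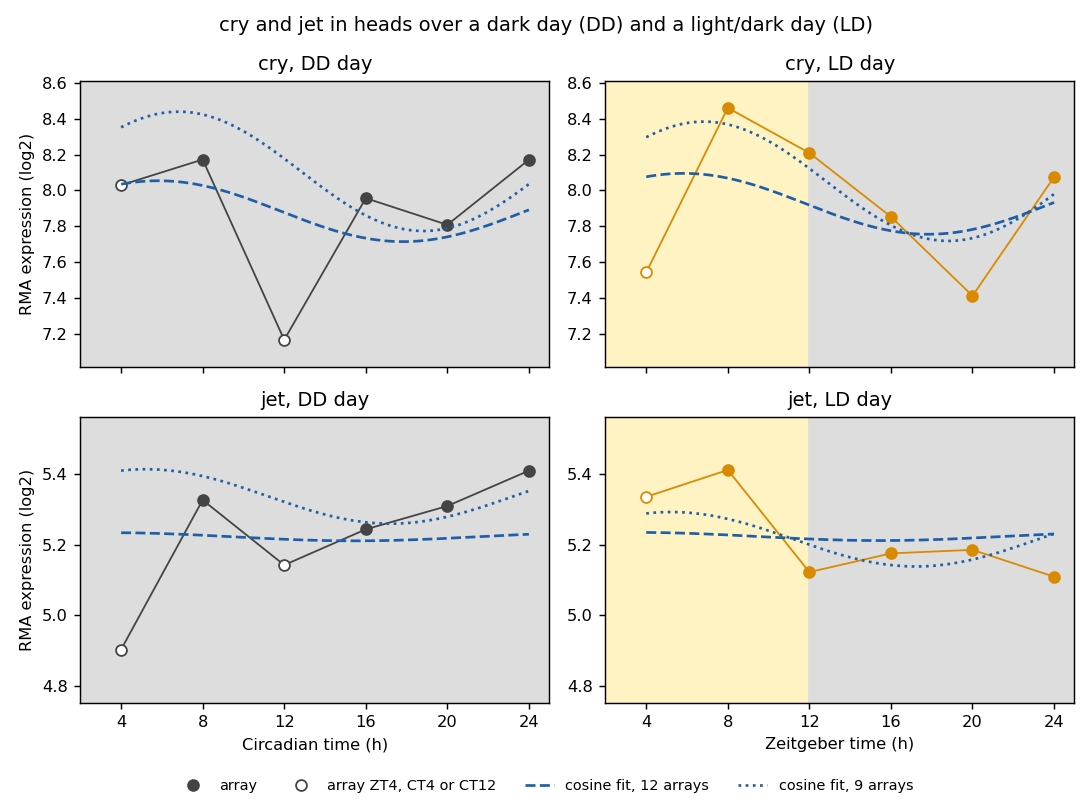
RMA expression (log2) of cry (top) and jet (bottom) against circadian or Zeitgeber time in the DD day (left) and the LD day (right); each point is 1 array, open points are CT4, CT12 and ZT4, and yellow and grey shading mark light and dark. Dashed and dotted lines are cosine fits to all 12 arrays and to the 9 arrays without the open points: the cry fit has an amplitude of 0.334 over 9 arrays and 0.170 over 12.

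The first question was whether cry followed a 24-h rhythm over both days. Over all 12 arrays the fitted amplitude, the distance from mean to peak, was 0.170 ± 0.146 (log2, SE), a peak-to-trough ratio of 1.27, with a peak at 5.83 ± 3.28 h. Without ZT4, CT4 and CT12 it was 0.334 ± 0.0832, a ratio of 1.59, with a peak at 6.83 ± 1.01 h. With all 12 arrays kept and the 3' minus 5' difference as a covariate, the amplitude was 0.306 ± 0.0867 and the peak 6.60 ± 1.03 h. The fitted maximum thus fell near the middle of the actual or subjective day in each of these fits, which pool both days. In DD alone the fitted peak was at 1.59 ± 2.04 h and in LD alone at 9.46 ± 1.83 h. With 1 array left out, the pooled peak moved between 3.75 h (without ZT8) and 9.004 h (without CT12).

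Neither cry nor jet passed the rhythm test across all probe sets in limma's moderated F test, with 0 of 2 members called against a background of 0.00716% (1 of 13966 probe sets). The adjusted p of cry was 0.994 over 12 arrays (unadjusted p 0.529) and 0.498 over 9 arrays (unadjusted p 0.00914). With the quality covariate the adjusted p was 0.984 (unadjusted p 0.0161). An unadjusted p under 0.05 was given to 3.34% of all probe sets over 12 arrays and to 8.75% over 9, and 1.82% of probe sets had a p at or below that of cry in the fit on 9 arrays. The 9 arrays hold no array at 4 h and only ZT12 at 12 h, so the upper part of the fitted curve rests on ZT8, CT8, ZT12 and the arrays at 24 h. Leaving out 1 array moved the amplitude to 0.295 without ZT4, and to 0.102 without ZT8 and 0.105 without ZT20, the highest and lowest arrays of the LD day.

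A direct comparison of clock hours, made on the same arrays as the cosine fit and not independent of it, gave the same direction. At 24, 4 and 8 h cry averaged 8.08 ± 0.302 (SD, n = 6), and at 12, 16 and 20 h it averaged 7.73 ± 0.381 (n = 6). The difference of 0.342 was within the spread of arrays (exact permutation test within days, two-sided, p = 0.145, smallest possible p 0.005). Without ZT4, CT4 and CT12 the values were 8.22 ± 0.167 (n = 4) and 7.85 ± 0.290 (n = 5), a difference of 0.367 as the mean of both days (exact permutation p = 0.05). With ZT4 alone left out the difference was 0.463 (exact permutation p = 0.04). With CT12 alone left out it was 0.222 (exact permutation p = 0.23), and with CT4 alone left out 0.365 (exact permutation p = 0.155). In DD alone all 3 arrays at 4, 8 and 24 h (8.03 to 8.17) lay above all 3 at 12, 16 and 20 h (7.17 to 7.96). This gives an exact permutation p = 0.1, the smallest that 3 arrays against 3 allow. CT4 lay only 0.073 above CT16, and CT4 and CT12 are weak arrays. In LD alone the difference was 0.202 (exact permutation p = 0.7) and the groups overlapped.

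The level of jet varied less. In DD, jet was 4.903 at CT4, 5.33 at CT8, 5.14 at CT12, 5.24 at CT16, 5.31 at CT20 and 5.41 at CT24. In LD, jet was 5.34 at ZT4, 5.41 at ZT8, 5.12 at ZT12, 5.18 at ZT16, 5.19 at ZT20 and 5.11 at ZT24. The highest LD value was at ZT8, as for cry, and the lowest array was CT4, not CT12. In the order of the 12 levels only the last gap, 0.206 between ZT24 and CT4, exceeded the moderated residual SD of 0.163. The mean of 5.22 lay just above the array medians (4.93 to 4.96), and signal over background was not measured, so its signal was modest.

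No 24-h rhythm of jet was detectable with this number of arrays. The amplitude was 0.0115 ± 0.0664 over 12 arrays (limma adjusted p 0.999, unadjusted p 0.985). Without ZT4, CT4 and CT12 it was 0.077 ± 0.0538, a ratio of 1.11 with a peak at 5.22 ± 2.41 h (adjusted p 0.786, unadjusted p 0.388). The single array CT4 moved this value most, and without it the amplitude was 0.0940 ± 0.0508 (adjusted p 0.982). The fitted peak was not stable: it lay at 6.52 h in LD alone and at 19.2 h in DD alone. At 24, 4 and 8 h jet averaged 5.25 ± 0.202 (SD, n = 6) and at 12, 16 and 20 h 5.20 ± 0.0692 (n = 6), a difference within the spread (exact permutation p = 0.6). Over the 9 arrays the difference was 0.0954 (exact permutation p = 0.133).

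**Figure D2:**
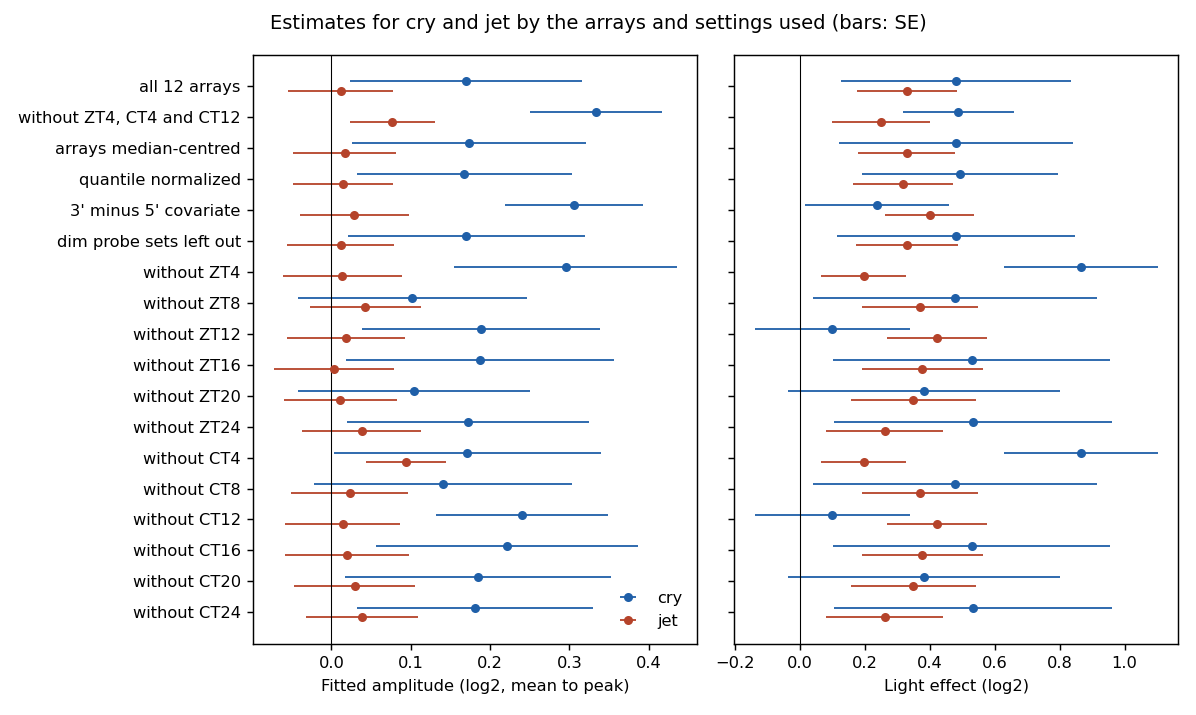
Fitted rhythm amplitude (left) and light effect (right), in log2 with SE bars, for cry (blue) and jet (red) under each choice of arrays or setting, single-day fits not shown. The cry amplitude is 0.334 without ZT4, CT4 and CT12 and 0.170 with all 12 arrays, and the cry light effect runs between 0.0998 without ZT12 or CT12 and 0.866 without ZT4 or CT4.

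The second question was whether constant darkness changed the level. For cry the DD mean was 7.88 ± 0.378 and the LD mean 7.93 ± 0.402 (SD, n = 6 each). The DD minus LD difference was -0.0413 ± 0.207 (log2, SE), with a 95% interval of -0.497 to 0.415. The days overlapped almost wholly, and cry was higher in DD at 4 of 6 clock times. Without ZT4, CT4 and CT12 the means were 8.03 ± 0.178 (n = 4) in DD and 8.002 ± 0.397 (n = 5) in LD, and the fitted difference was 0.0555 ± 0.118, of opposite sign.

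For jet the DD mean was 5.22 ± 0.180 and the LD mean 5.22 ± 0.122 (SD, n = 6 each). The difference was -0.000833 ± 0.094, with a 95% interval of -0.208 to 0.206. Without the weak arrays jet averaged 5.32 ± 0.0683 (n = 4) in DD and 5.20 ± 0.122 (n = 5) in LD, and the fitted difference was 0.121 ± 0.0706 (limma adjusted p 0.828, unadjusted p 0.121). Neither member was called over 12 arrays (adjusted p 0.999 for both), where 0.0859% of all probe sets were (4.41% at an unadjusted p under 0.05), or over 9 arrays, where 0.115% were (6.71%). DD always followed LD, so darkness and the order of the days cannot be told apart.

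The third question was whether light itself moved either transcript. It was tested by setting the LD minus DD difference at 4, 8 and 12 h, when LD flies were in light, against that at 16, 20 and 24 h, when flies of both days were in the dark. For cry, LD minus DD averaged 0.284 at the hours of light and -0.199 at the dark hours, so the light effect was 0.481 ± 0.353 (log2, SE; 95% interval -0.349 to 1.31). The single hours did not act alike. At 12 h the cry level at CT12 was 7.17 and at ZT12 8.21, so DD was lower by 1.05. At 8 h CT8 (8.17) was lower than ZT8 (8.46) by 0.289. At 4 h CT4 (8.03) was above ZT4 (7.54) by 0.488, and both are weak arrays. The estimate was 0.866 without ZT4 or CT4 and 0.0998 without ZT12 or CT12.

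For jet, LD minus DD averaged 0.166 at the hours of light and -0.164 at the dark hours, a light effect of 0.330 ± 0.153 (95% interval -0.031 to 0.690). At 4 h CT4 (4.903) lay 0.432 below ZT4 (5.34), the largest of the 3 differences at hours of light. The estimate was 0.197 without ZT4 or CT4. At the dark hours, at 24 h CT24 (5.41) lay 0.300 above ZT24 (5.11). Neither member passed in limma: the adjusted p was 0.998 for both, with an unadjusted p of 0.214 for cry and 0.0676 for jet, and 0% of probe sets were called (3.83% at an unadjusted p under 0.05). With ZT4, CT4 and CT12 left out the estimate rests on the pair at 8 h alone. It was then 0.488 ± 0.171 for cry (adjusted p 0.384, unadjusted p 0.0301) and 0.249 ± 0.151 for jet (adjusted p 0.536), where 12.1% of all probe sets had an unadjusted p under 0.05. With the quality covariate the effect was 0.238 ± 0.222 for cry and 0.399 ± 0.138 for jet (adjusted p 0.870, unadjusted p 0.0234).

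**Figure D3:**
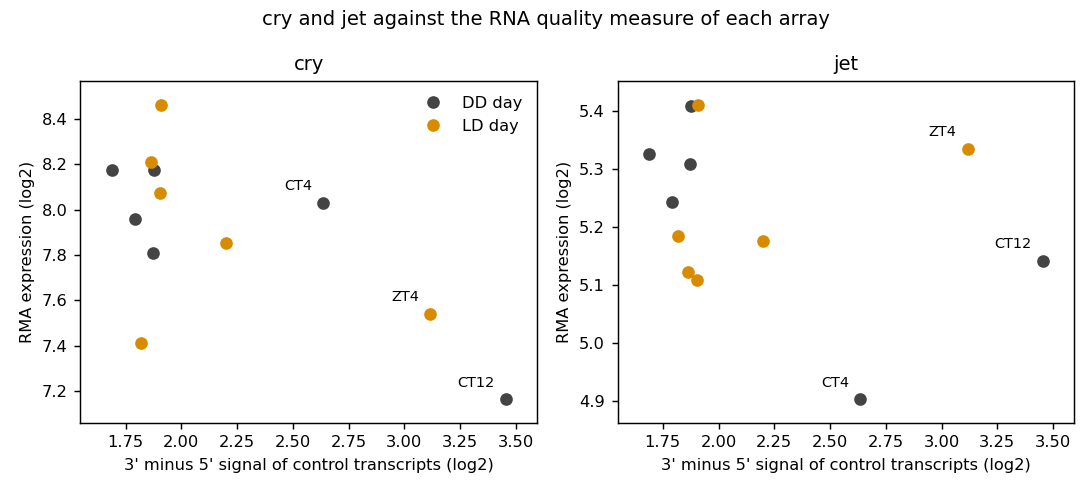
RMA expression (log2) of cry (left) and jet (right) against the 3' minus 5' signal of control transcripts (log2), 1 point per array, DD in grey and LD in orange, with CT4, ZT4 and CT12 named. The cry level is lowest (7.17) on the array with the largest control difference (3.46), and jet is lowest (4.903) at CT4, whose control difference is 2.64.

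The test of a rhythm difference between DD and LD asked whether the cosine curves had another size or timing in darkness. For cry the fitted peak was at 1.59 ± 2.04 h in DD alone and at 9.46 ± 1.83 h in LD alone, each with the weak arrays kept, with amplitudes of 0.314 ± 0.167 in DD and 0.346 ± 0.166 in LD. The vector difference between the curves had a size of 0.566 ± 0.263 (log2, SE), which did not pass in limma (adjusted p 0.858, unadjusted p 0.156). It was 0.285 without CT12 and up to 0.845 without ZT24. Over the other 9 arrays its size was 0.319 ± 0.127 (adjusted p 0.527). For jet the size was 0.210 ± 0.129 (adjusted p 0.858) over 12 arrays and 0.113 ± 0.0959 (adjusted p 0.781) over 9, and it was 0.339 without CT8. Across all probe sets 0% were called in both fits, and an unadjusted p under 0.05 was given to 3.53% over 12 arrays and 10.9% over 9.

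The 38 listed genes cover partners and turnover of CRY and JET, the core clock and other light input to the clock. Of these, 32 were measured, and none passed any of the 4 tests across all probe sets in limma. At an unadjusted p under 0.05, 4 were rhythmic, 1 was lower in DD, 1 was higher and 2 were lower in light, and 3 differed in rhythm. The shares of all probe sets at that threshold were 3.34%, 4.41%, 3.83% and 3.53% for rhythm, DD minus LD, light and rhythm difference. Over 9 arrays the counts were 6, 2, 4 and 7 of the 32, where the shares of all probe sets were 8.75%, 6.71%, 12.1% and 10.9%. The 4 rhythmic genes were the target gene tim and the clock genes per, vri and Clk, all among the 7 core clock genes listed. The gene lower in DD was tim (-0.722 ± 0.208, limma adjusted p 0.709, unadjusted p 0.00528). Over 9 arrays SkpA had the smallest p of the 32 for a rhythm difference (limma adjusted p 0.35, unadjusted p 0.00347). For DD minus LD it was the light-input gene Hdc (0.268 ± 0.0567, limma adjusted p 0.218, unadjusted p 0.00112).

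For tim, which encodes the protein that CRY and JET remove, the level in DD was 4.39 at CT4, 4.83 at CT8, 5.64 at CT12, 6.35 at CT16, 5.79 at CT20 and 5.49 at CT24. In LD tim was 5.16 at ZT4, 5.05 at ZT8, 7.11 at ZT12, 7.70 at ZT16, 6.49 at ZT20 and 5.29 at ZT24. Thus tim was high at ZT16, when cry was at 7.85 on its way down, and near its low at ZT8, when cry was at its highest. In the 9 arrays other than ZT4, CT4 and CT12 the fitted peak of tim was at 16 h with an amplitude of 1.23 ± 0.200, and that of vri, which encodes a repressor of Clk, was at 12.8 h. The fitted peak of Clk in these arrays was at 3.41 h, with an amplitude of 0.394 ± 0.146, and its mean level of 3.58 was low for the array. The fitted peak of cry, 6.83 h, thus lay between that of Clk and that of vri; differences between fitted peaks were not tested.

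**Figure D4:**
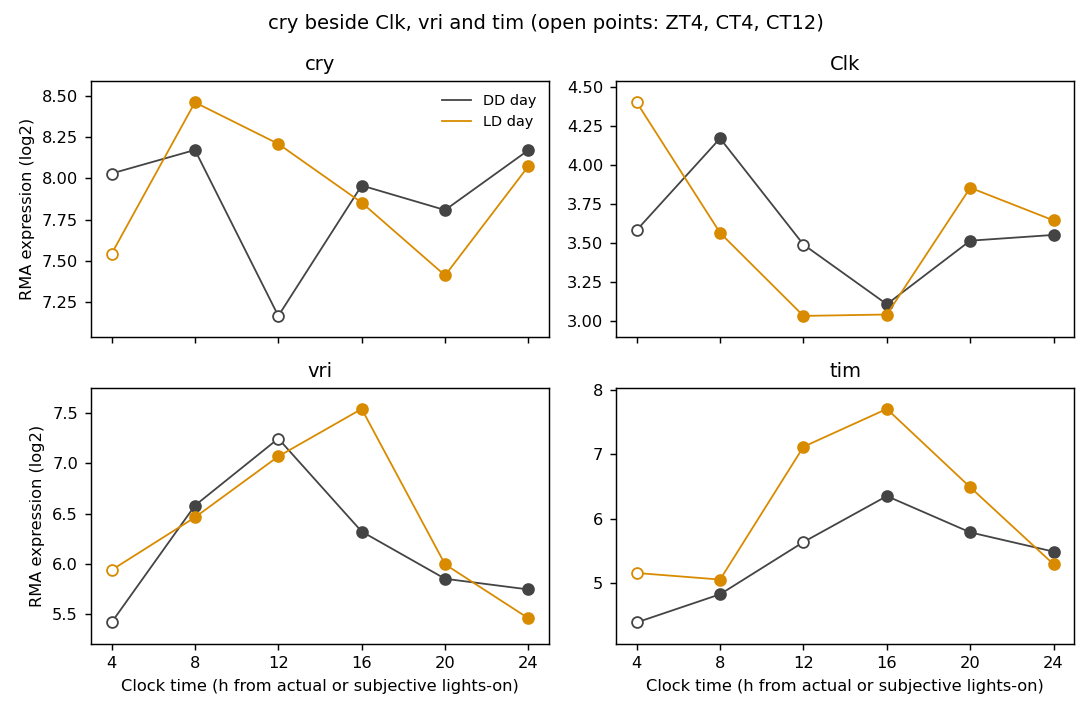
RMA expression (log2) of cry, Clk, vri and tim against clock time, 1 point per array, DD in grey and LD in orange, with open points for CT4, CT12 and ZT4. On the LD day cry is highest at ZT8 (8.46) while tim is highest at ZT16 (7.70), and on the DD day cry departs from an otherwise flat course at CT12 (7.17).

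The SCF partners of JET were the cullin gene Cul1, the adaptor gene SkpA, the RING genes Roc1a and Roc1b, and Nedd8, whose product modifies cullins. All 5 had a positive DD minus LD difference, with a median of 0.158 (all probe sets: 0), and none had an unadjusted p under 0.05. Over 9 arrays the median was 0.109. Cul1 was 7.85, 7.74 and 7.77 at CT4, CT8 and CT12, against 7.68, 7.18 and 7.07 at ZT4, ZT8 and ZT12. At the dark hours it was 7.74, 7.61 and 7.21 at CT16, CT20 and CT24, against 7.68, 7.93 and 7.44 at ZT16, ZT20 and ZT24. The LD values of Cul1 were thus below the DD values at each of the 3 hours of light, where ZT4, CT4 and CT12 are weak arrays. The light effect on Cul1 was -0.640 ± 0.178 (limma adjusted p 0.998, unadjusted p 0.00833) over 12 arrays. Over 9 arrays, where it rests on the pair at 8 h alone, it was -0.718. The sign is opposite to that of jet.

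Among genes of CRY turnover, BRWD3 and pic encode the substrate receptor and the DDB1 adaptor of a second ubiquitin ligase, built on Cul4. The light effect on pic was -0.652 ± 0.188 (adjusted p 0.998, unadjusted p 0.00995) and -0.768 over 9 arrays, with values of 6.68, 6.40 and 6.48 at CT4, CT8 and CT12 against 6.67, 5.89 and 5.82 at ZT4, ZT8 and ZT12. For BRWD3 and Cul4 it was -0.0607 ± 0.126 and -0.174 ± 0.223. Of the 9 genes of the COP9 signalosome, which strips Nedd8 from cullins, 5 had their lowest value at CT12, where 22.6% of probe sets above the median level were lowest. CSN5, the catalytic subunit, had a light effect of 0.434 ± 0.135 (adjusted p 0.998, unadjusted p 0.0140) and 0.460 over 9 arrays, and the median of the 9 was -0.005 (all probe sets: 0.0225).

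For Hk, the potassium channel beta subunit through which CRY acts on neuronal firing, the rhythm difference did not pass in limma. The adjusted p was 0.858 over 12 arrays and 0.431 over 9 (unadjusted p 0.00633 and 0.0365). The DD values of Hk were 6.07 at CT4 and 6.18 at CT24 and between 5.67 and 5.74 at the other times. In LD Hk was lowest at ZT4 (5.38) and highest at ZT16 (5.99). CT4 and ZT4 are weak arrays. The channel genes Sh, eag and Shal had rhythm ratios of 1.03 to 1.10 over 12 arrays. Of the other light-input genes measured, Hdc, whose enzyme makes the photoreceptor transmitter histamine, had an amplitude of 0.202 ± 0.0442 without ZT4, CT4 and CT12 and a peak at 4.59 h (adjusted p 0.461, unadjusted p 0.00447). Over 12 arrays the Hdc amplitude was 0.211 ± 0.0946 (limma adjusted p 0.994, unadjusted p 0.128). The light-input gene qsm peaked at 2.23 h in the 9 arrays with an amplitude of 0.137 ± 0.0426 (adjusted p 0.541, unadjusted p 0.0313). Over 12 arrays its fitted peak was at 22.2 h (limma adjusted p 0.994, unadjusted p 0.344).

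The genes most like cry over the 12 arrays, by Pearson's r among 6211 named probe sets above the median level, were Arp10 (r = 0.946), CG14671 (0.942), CG11550 (0.930), CG16989 (0.919) and aru (0.906). All 5 correlated negatively with the 3' minus 5' difference (r between -0.761 and -0.568). Over the 9 arrays without ZT4, CT4 and CT12 they were CG12795 (0.970), Mfe2 (0.962), PI31 (0.945), Ankle2 (0.938) and Arp10 (0.925). Arp10, which encodes an actin-related protein, was the gene named in both sets. The genes most like jet over 12 arrays were Hmx (0.917), CG30412 (0.887), CG43347 (0.859), CG15539 (0.833) and CG7142 (0.797), and over 9 arrays they were CG13228, RunxA, gt, CG11454 and loco, with r of 0.901 to 0.911. No gene was in both jet sets. These correlations share arrays and RNA quality and are descriptions.

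The mean score of the photoreceptor markers was low, as cry was, on 2 arrays. Over 11 genes the score was -0.659 at CT12 and -0.405 at ZT4, and -0.109 to 0.276 on the other 10. At CT12, 7 of the 11 were lowest, where 22.6% of probe sets above the median level were. The markers did not all fall at ZT4. There 0 of the 11 were lowest, against 16.1% of those probe sets, and Arr2 was highest (12.41). Yet trp (9.14), trpl (8.88), Arr1 (10.19) and Gbeta76C (8.01) were lower at ZT4 than on every array but CT12. This did not hold for the other markers of the list. At ZT20, where cry was at 7.41, the photoreceptor score was 0.0738. Neuronal marker scores ran between -0.183 and 0.0739, glial scores between -0.274 and 0.217 and fat body scores between -0.588 (CT12) and 0.388. The part of these lists, and of the male tract, muscle and midgut markers high at CT12, in the cry values was not tested.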

How the data were processed

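The authors deposited 1 log2 value for each probe set on each array. The submitters' processing notes name RMA as the method, without its version or which arrays entered 1 normalization. Since RMA equalizes the distributions of arrays, it would hide a shift common to most transcripts. Array groups and times came from the titles. Gene names came from the platform annotation, with symbols updated by a RefSeq table (Release 6): 12442 of 13966 tested probe sets had 1 gene, 327 several and 1197 none; 44 control probe sets were left out. For genes with more than 1 probe set, that of highest mean was taken.

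Fits used limma 3.58.1 in R 4.3.3 (lmFit, eBayes) on all 13966 probe sets, with Benjamini-Hochberg adjustment over all of them at 0.05, and were tested on simulated data. Rhythm was the F test of cosine and sine of clock time (24 h) with regime as covariate. DD minus LD came from the same fit. Light was an indicator of ZT4, ZT8 and ZT12 beside regime and a clock time factor. The rhythm difference was the F test of regime by cosine and sine. With 1 array per time point, p-values rest on residual scatter, which may be technical, and 12 arrays limit the precision. Alternatives were arrays left out, median centring, quantile normalization, a quality covariate, dim probe sets left out, and clock time as a block.

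The members, lists and tests were chosen with earlier results of these data known. Named were cry, jet, genes of the 6 pathway lists with the smallest p or that a result turns on, and the 5 genes of highest r. Genes overlapping or next to the members, and Arr2 and trp, were named after their values were seen. List genes without a named probe set, sequences and promoter motifs were not analysed here.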

Additional observations from a re-analysis of the deposited data

Results flagged for a closer look

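In the 72 sets of 6 arrays screened (36 measures in 2 days), 11 held an array far from the other 5, by Dixon's criterion on its gap to the nearest of them. Chance gives about 1 in 20. One was a member: cry at CT12 (7.165), against 7.81 to 8.17 on the other DD arrays. The COP9 genes CSN1b (6.126 against 6.55 to 6.70), CSN4 (4.919 against 5.42 to 5.53) and CSN6 (5.451 against 5.92 to 5.98) were also low at CT12. At CT12 per was high (6.104 against 5.596 to 5.724). At CT24 Cul1 was low (7.211 against 7.61 to 7.85).

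In LD the array apart was ZT4 each time. CSN6 was low there (5.474 against 5.99 to 6.29), and Sh (5.279 against 4.85 to 4.92) and Hdc (6.528 against 5.53 to 5.87) were high. The 3' minus 5' control difference (3.117 against 1.82 to 2.20) and the hybridisation control mean (10.55 against 9.39 to 9.69) were high at ZT4 too. Of the 11, 10 were on CT12 or ZT4, the arrays with the largest 3' minus 5' difference. That difference and the hybridisation control mean, both at ZT4, are themselves among the 10.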

How the results depend on the processing

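Neither member passed an adjusted test under any of the 17 to 19 alternatives run for each. DD minus LD changed sign without ZT4, CT4 and CT12 (cry 0.0555, jet 0.121) and with the quality covariate (cry 0.00521, jet 0.0062), and ran from -0.175 to 0.137 for cry and from -0.0458 to 0.0818 for jet with 1 array left out. With clock time as a block, pairing the arrays of 1 hour, it was -0.0413 ± 0.185 for cry and -0.000833 ± 0.0918 for jet, with 11 probe sets called in place of 12, and it changed no call on the members. The jet peak, 3.47 h over 12 arrays, moved by over 6 h in DD alone (amplitude 0.0978, peak 19.2 h) and without ZT4, ZT8, ZT12 or CT24 (16.4, 20.96, 10.1 and 11.1 h), and its amplitude ran from 0.00281 to 0.094 with 1 array left out. That of cry ran from 0.102 to 0.295. The morning minus evening difference of jet was -0.0187 in DD alone and 0.00375 to 0.130 with 1 array left out. That of cry ran from 0.222 to 0.463. Its unadjusted exact permutation p was 0.04 without ZT4, the lowest of 17 alternatives, and 0.7 in LD alone, the highest. The number of probe sets called for rhythm was 1 in the fit reported, 2 with the quality covariate, 0 without the 3 arrays and in each day alone, and 0 to 1 with 1 array left out. For DD minus LD it was 12, 30 with the covariate, and 1 to 22 with 1 array left out. For light and for rhythm differences it was 0 in limma under every setting. The causes of these changes were not tested. Signal over background was not measured.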
